A study of Populus tremula x Populus alba with 14 samples.

Results

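A set of 148 genes was lower in the outer than in the inner bark of every sampled stem of hybrid poplar. The set was drawn from a table of 41335 genes, of which 15991 had a mean of at least 10 CPM over the 7 inner bark libraries. CPM is a gene's count per 1000000 counts of its library. For each of 7 numbered stems the log2 ratio of outer to inner CPM was taken with 1 added to both. Genes were selected on this ratio and on their inner level: a gene was kept where this ratio was at most -0.7 in all 7 stems and its mean inner level was at least 10 CPM. The set is 0.926% of the genes at that inner level. These ratios and levels chose the genes, so they are given below as a description without a test. The difference between old and young stems was not a criterion and was tested, but the inner floor is a mean over both ages. In 24 of the 148 genes the old inner mean was under 10 CPM, so they met the floor through the young libraries, where they are high, and 0 genes met it through the old libraries alone. Age counts are therefore also given for the other 124 genes, a choice made after seeing the data.

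Inner bark lies between the cork and the wood. It holds the secondary phloem, whose sieve elements and companion cells carry sugars along the stem, together with parenchyma and fibres. On its inner face lies the vascular cambium, the meristem that adds phloem outwards and wood inwards. Outer bark is made by a separate meristem, the phellogen, which forms the dead, suberised phellem (cork) towards the outside. Transcripts of conducting, storing, fibre-forming and dividing vascular cells would be counted in the inner sample, with whatever neighbouring tissue was peeled with it.

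The trees belonged to 1 clone, INRA 717-1B4, of the hybrid Populus tremula x Populus alba, which is used widely for tree genetics because it can be transformed. All groups were wild type and came from greenhouse trees that stood outdoors in the growing season. The old outer group had 4 libraries of phellem with phellogen from stems of 6 to 8 mm diameter, and the old inner group had 4 libraries of secondary phloem with vascular meristem from stems of that diameter. The young outer and young inner groups had 3 libraries each of the corresponding layers from stems of 4 to 5.5 mm diameter. Old stems are numbered 1 to 4 and young stems 1, 2 and 4 in the titles. Each title also opens with another number, which is 1 to 8 in old libraries. In young libraries it is 15 to 18 for stems 1 and 2, and 9 (inner) and 20 (outer) for stem 4. What this opening number stands for is not stated, and age cannot be told apart from it. The libraries of a layer were taken as separate stems, which the labels do not state outright, so the p-values below describe the spread among these libraries, which may be partly technical.

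Library totals lay between 11944485 and 15980636 counts, and replicate libraries differed from each other by more than counting noise. Libraries of stem 1 stood apart: between old stem 1 and the other old stems, gene counts of a layer differed by a chi-square of 92.6 to 149.5 per degree of freedom, against 17.4 to 36.2 among the others. For young stem 1 these values were 59.3 to 77.3, against 20.5 to 26.1. Gene symbols in the files were copies of the identifiers (100% of rows), so the tissue labels could not be checked against phloem, cambium or cork markers, and no function can be given for a gene of the set. The genes are therefore described by where and when they were counted. All 148 passed the filter on low counts and were tested. In these bulk samples, fewer cells of a type and less RNA per cell cannot be told apart.

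The layer difference of the set was larger in old than in young stems. Over the 4 old stems the genes had a median mean log2 ratio of -1.72, which is an inner level 3.29 times the outer level on the CPM + 1 scale, where the 1 understates the difference of genes at low levels. Over the 3 young stems the median was -1.14, or 2.21 times. The median ratio of all genes at 10 CPM or more was -0.02 in old and 0.02 in young stems. Single stems gave set medians of -1.53, -1.56, -1.63 and -2.05 in old stems 1 to 4, against -1.14, -1.09 and -1.20 in young stems 1, 2 and 4. Every old median thus lay below every young median, and old stem 4 had the lowest. Of the 148 genes, 123 had a more negative mean ratio in old stems and 25 in young stems. For 59 genes the ratios of all old stems lay below those of all young stems, and for 2 genes above. The ratio chose the genes, so this change with age was not tested. Scaling the libraries by the trimmed mean of M values (TMM) or by relative log expression (RLE) brought the young median to -1.22 and -1.24.

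**Figure D1:**
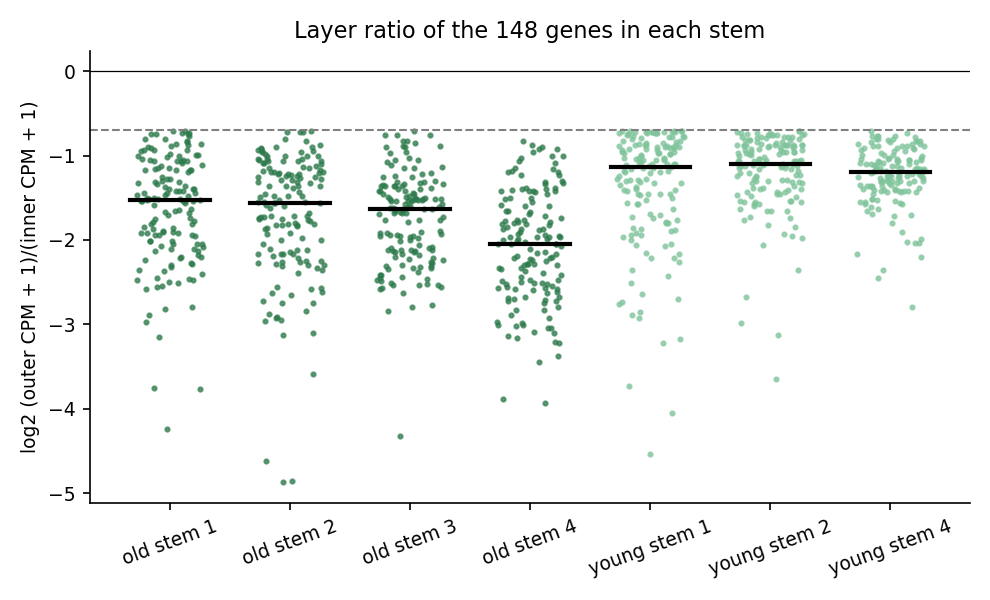
Log2 ratio of outer to inner CPM (1 added to both) for each of the 148 genes in the 4 old and 3 young stems; points are genes, bars are medians and the dashed line is the limit of -0.7. The medians run from -2.05 to -1.53 in old stems and from -1.20 to -1.09 in young stems.

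Most genes of the set had a moderate ratio. The quartiles of the mean ratio over the 7 stems were -1.75 and -1.33, 18 genes were at -2 or below and 5 were above -1. In 38 genes the ratio was at most -1 in all 7 stems, and in 3 genes it was at most -2 in all 7. The limit cut through a continuous range. The weakest ratios just inside it were -0.71, -0.71 and -0.70, and those just outside it, among genes with enough inner counts, were -0.70, -0.70 and -0.70. The lowest inner levels kept were 10.03, 10.3 and 10.5 CPM, and the nearest ones left out for their level were at 9.54, 9.93 and 9.995 CPM.

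Potri.016G104300 had the most negative mean ratio, -3.77. It was at 0.501, 0.783, 0.642 and 4.25 CPM in the outer bark of old stems 1 to 4, against 6.37, 50.9, 31.8 and 79.03 CPM in their inner bark. In young stems 1, 2 and 4 it was at 5.04, 6.52 and 2.64 CPM in outer bark, against 139.3, 93.3 and 24.2 CPM in inner bark. Its outer and inner values did not overlap at either age, while its inner values overlapped between the ages. Potri.010G196300 followed with a mean ratio of -3.15. In old stems 1 to 4 it was at 0.438, 2.63, 3.27 and 4.40 CPM in outer bark, against 18.6, 88.2, 22.5 and 45.1 CPM in inner bark. In young stems 1, 2 and 4 its levels were 7.69, 4.20 and 1.95 CPM in outer bark, against 114.4, 40.2 and 6.70 CPM in inner bark. Here the highest young outer value exceeded the lowest young inner value, although the inner value was the higher one within each stem.

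Levels within the set were spread widely. The mean over the 7 inner libraries was a median of 36.0 CPM, with quartiles of 20.8 and 80.3 CPM and a highest value of 672.8 CPM. Inner levels reached 100 CPM in 32 genes and stayed under 20 CPM in 36. No gene of the set had fewer than 10 counts in an inner library, while 36 genes had fewer than 10 counts in at least 1 library. These values are per gene and not per length, so they do not rank transcript numbers between genes.

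The pair of genes with the highest inner counts followed the same order of libraries. Potri.002G257900 was at 7.67, 147.6, 572.1 and 338.1 CPM in the inner bark of old stems 1 to 4, against 1411, 1337 and 897 CPM in that of young stems 1, 2 and 4. Potri.004G059600 was at 3.15, 116.1, 392 and 253.6 CPM in old inner bark, against 988, 783 and 582 CPM in young inner bark. In both genes old stem 1 was the lowest and old stem 3 the highest of the old libraries, and every old value lay below every young value. With all libraries neither passed the age test. Potri.002G257900 differed by -2.21 ± 1.005 on the log2 scale, old minus young (SE, with an edgeR adjusted p of 0.150). For Potri.004G059600 the difference was -2.05 ± 1.07 (SE, with an edgeR adjusted p of 0.197). Without old inner replicate 1 alone both passed, with log2 fold changes of -1.79 and -1.62 (edgeR adjusted p = 0.0411 and 0.0405). Without stem 1 of both ages neither did, at -1.73 and -1.49 (edgeR adjusted p = 0.0534 and 0.0573).

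Summed over the set, the genes took 0.078%, 0.136%, 0.231% and 0.133% of the counts in the outer bark of old stems 1 to 4, against 0.292%, 0.526%, 0.784% and 0.584% in the inner bark of those stems. In young stems 1, 2 and 4 the shares were 0.663%, 0.783% and 0.661% in outer bark, against 1.82%, 1.78% and 1.57% in inner bark. The mean share of old stems was 0.145% ± 0.064 on the outer side, against 0.547% ± 0.203 on the inner side (SD, n = 4 each). That of young stems was 0.702% ± 0.070 on the outer side, against 1.72% ± 0.136 on the inner side (SD, n = 3 each). The young mean was 4.86 times the old mean in outer bark and 3.15 times in inner bark. These shares hold the 24 genes that met the inner floor through the young libraries. The shares of the other 124 genes are not given here, so the difference with age is not free of the selection. Outer bark held between 22.7% and 29.5% of the inner share within an old stem, and between 36.5% and 43.9% within a young stem. The shares of young outer bark, the layer with less of these transcripts, lay within the range of old inner bark. For 82 of the 148 genes (55.4%) the mean young outer level lay above the mean old inner level, against 49.2% of all genes at 10 CPM or more. The 10 most abundant genes held between 9.21% and 37.7% of the set's counts in a library. Without them the mean share was 0.105% (outer) and 0.408% (inner) for old stems, and 0.490% (outer) and 1.14% (inner) for young stems.

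**Figure D2:**
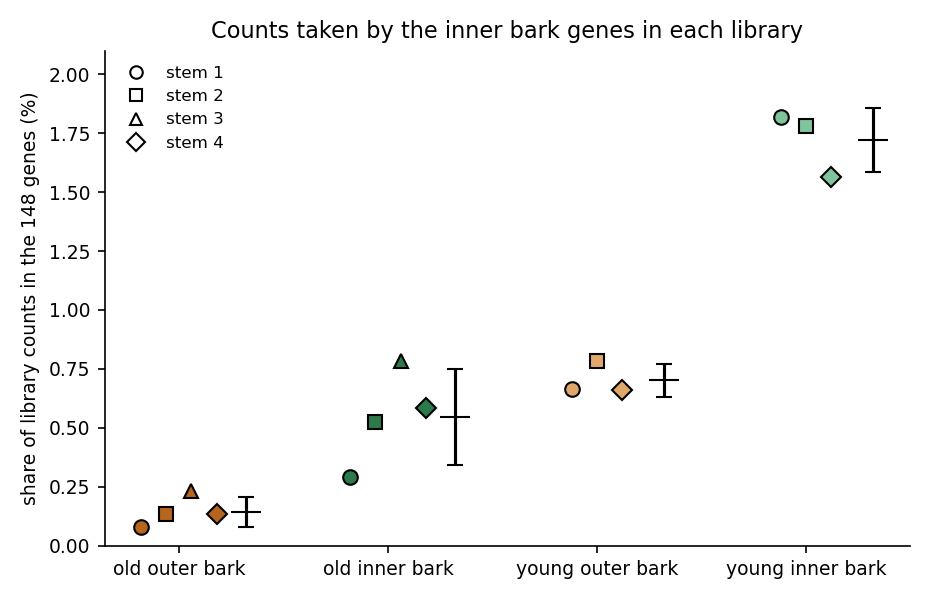
Share of each library's counts, in percent, taken by the 148 genes; symbols mark the numbered stem, and the bars beside them give the mean and SD of the group (n = 4 for old, n = 3 for young). Old outer libraries lie between 0.078% and 0.231%, old inner between 0.292% and 0.784%, young outer between 0.661% and 0.783% and young inner between 1.57% and 1.82%.

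The comparison of old with young stems asks how transcript levels of these inner bark genes differed with stem age. In inner bark 65 of the 148 genes fell in old stems and 0 rose (edgeR, adjusted p below 0.05 over all genes tested). Of all 27673 genes tested, 11.7% were lower and 8.43% higher in old inner bark, and of the 15991 genes at 10 CPM or more 10.3% were lower and 11.4% higher. The set had a median log2 fold change of -1.49, with quartiles of -2.21 and -0.74, which is a young level 2.81 times the old level at the median. All genes tested had a median of 0.05. Among the 124 genes whose old and young inner means were each at 10 CPM or more, 47 fell and 0 rose, with a median of -1.44. Of the 14058 tested genes that met the floor at both ages, 7.05% were lower and 10.9% higher. The fold change was negative in 138 genes of the set and positive in 10. Of the 124 genes it was negative in 114, against 5726 of the 14058 genes. In 102 genes every old inner library lay below every young one, against 19.5% of all genes tested, and in 0 genes every old library lay above, against 15.4% of all genes tested. At an unadjusted p below 0.05, 99 genes of the set were lower and 0 higher, against 19.8% and 18.2% of all genes tested. The counts of 102 and 99 are over all 148 genes. The 24 genes that met the floor through the young libraries are not set aside in them, so they are not free of the selection. With adjusted p below 0.05, both DESeq2 and limma also called 0 higher.

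The count for inner bark depended on single libraries. Leaving out the library of old stem 2 or old stem 4 brought it to 38 or 36. Leaving out young stem 2 or young stem 4 brought it to 29 or 15. The share of all genes called lower fell with it, to 5.07%, 6.59%, 3.78% and 1.94% in these fits. Without stem 1 of both ages 91 genes fell, with a median log2 fold change of -1.37, and 3 genes rose, in a fit that called 19.9% of all genes lower and 17.3% higher.

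**Figure D3:**
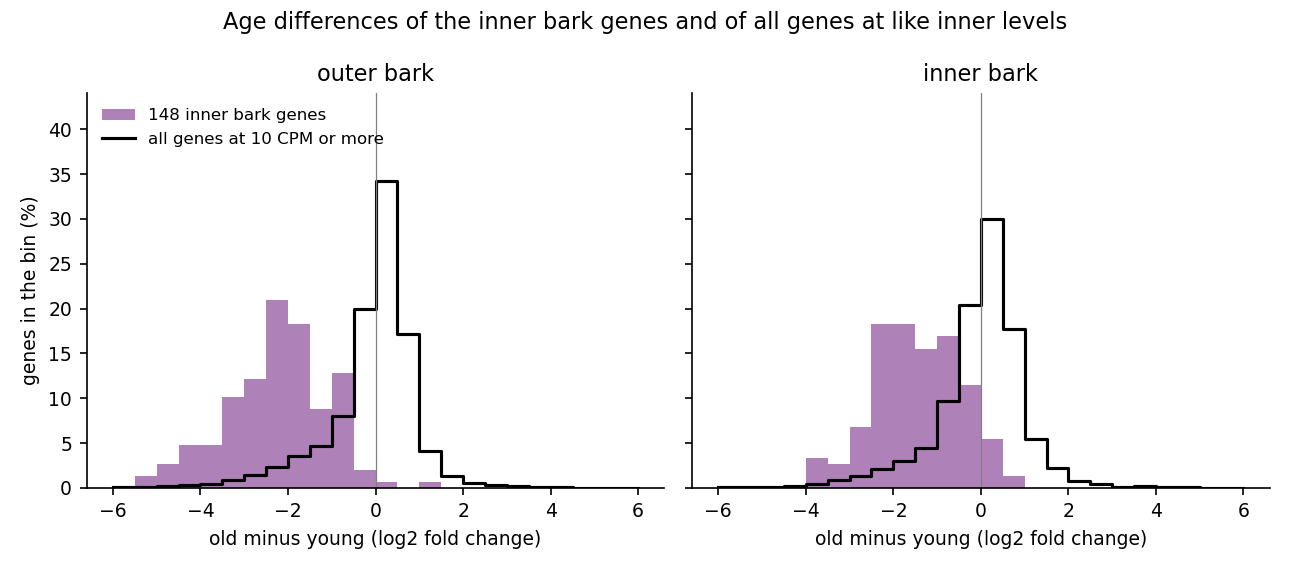
Distribution of the old minus young log2 fold change in outer and inner bark, as the percent of genes in bins of 0.5; filled bars are the 148 genes and the line is all genes with a mean inner level of at least 10 CPM. The filled bars lie mostly left of 0, with medians of -2.19 in outer and -1.49 in inner bark.

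Potri.006G117200 showed the largest fall in inner bark. It was at 21.02, 15.7, 71.5 and 34.995 CPM in the inner bark of old stems 1 to 4, against 379.7, 622.8 and 537.1 CPM in that of young stems 1, 2 and 4. Its log2 fold change was -3.84 ± 0.53 (SE; edgeR adjusted p = 0.00973), or 14.3 times higher in young stems. In outer bark it was at 3.50, 9.18, 16.9 and 9.61 CPM in old stems, against 199.2, 289.6 and 218.3 CPM in young stems. The young outer values thus lay above all old inner values of this gene. Potri.T011100 had old inner levels of 15.04, 12.7, 27.6 and 24.2 CPM, against young inner levels of 175.6, 334.1 and 302 CPM. It fell by 3.75 on the log2 scale, with an SE of 0.36 (edgeR adjusted p = 0.00785). Both passed in inner bark under all alternatives run, with edgeR, DESeq2 or limma adjusted p up to 0.0465.

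More genes of the set passed the age test in outer bark, which is a count from a separate fit and not a test between the layers. There 90 of the 148 genes fell in old stems and 0 rose (edgeR, adjusted p below 0.05 over all genes tested). Of all genes tested 8.88% were lower and 5.64% higher in old outer bark, and of the genes at 10 CPM or more 8.65% were lower and 7.38% higher. The median log2 fold change of the set was -2.19, with quartiles of -2.88 and -1.51, against 0.06 for all genes tested. The young outer level was therefore 4.57 times the old one at the median. Among the 124 genes that met the inner floor at both ages, 70 fell and 0 rose, with a median of -2.13, against 6.47% lower and 6.78% higher among all such genes. Only 2 genes of the set had a positive fold change. Of the 124 genes it was negative in 122, against 5566 of the 14058 tested genes that met the floor at both ages. In 123 genes every old outer library lay below every young one, against 20.9% of all genes tested, and in 0 genes above, against 11.4%. At an unadjusted p below 0.05, 124 of the 148 genes were lower and 0 higher in old outer bark, against 18.6% and 15.8% of all genes tested. This count and that of 123 genes do not set aside the 24 genes that met the inner floor through the young libraries. With adjusted p below 0.05, both DESeq2 and limma called 0 higher. Leaving out the library of old stem 2 brought the count to 27, where 1.23% of all genes were called lower, and that of old stem 4 to 41 (1.92%). Leaving out young stem 2 or young stem 4 brought it to 14 (0.383%) or 28 (1.22%), and it was 120 without stem 1 of both ages, where 18.8% of all genes were called lower.

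Potri.001G245400 had the largest fall in outer bark. Its inner means were 3.93 CPM in old stems and 47.8 CPM in young stems, so it is one of the 24 genes that met the inner floor through the young libraries. In outer bark it was at 0.125, 0.711, 0.770 and 0.373 CPM in old stems 1 to 4, against 19.2, 28.5 and 17.4 CPM in young stems 1, 2 and 4. The log2 fold change was -5.36 ± 0.51 (SE; edgeR adjusted p = 0.00905), and the lowest old value rests on 2 counts. Potri.T071300 was at 1.001, 1.35, 4.24 and 1.56 CPM in old outer bark, against 50.3, 102.6 and 66.04 CPM in young outer bark. It fell by 5.09 on the log2 scale, with an SE of 0.53 (edgeR adjusted p = 0.00905). In inner bark these genes fell by 3.60 and 3.51 on the log2 scale, with SEs of 0.50 and 0.48 (edgeR adjusted p = 0.00977 and 0.00973). Neither gene's values overlapped between the ages in either layer.

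**Figure D4:**
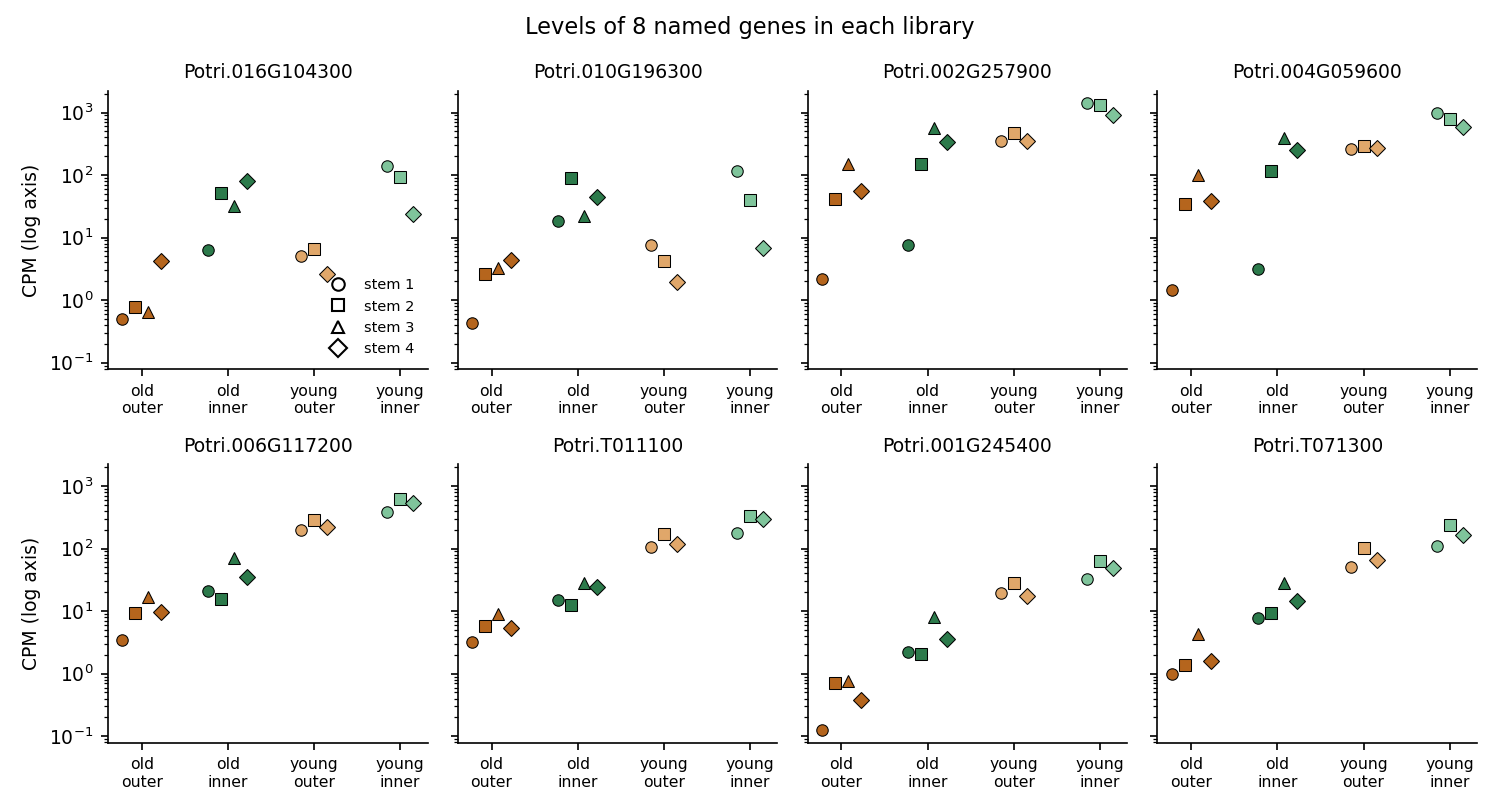
CPM of 8 genes in each library on a log axis, by group; symbols mark the numbered stem. The lower 4 genes have all old values below all young values within a layer, whereas the inner values of Potri.016G104300 and Potri.010G196300 overlap between the ages.

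Both layers largely called the same genes. In 63 genes the fall passed in both, which is 96.9% of the inner and 70.0% of the outer calls, 2 genes passed in inner bark alone, 27 in outer bark alone and 56 in neither. The layers came from the same numbered stems, so the lists are not independent. The like overlap over all genes tested is not given here, so this overlap cannot be read as a trait of the set. The fold change was more negative in outer than in inner bark for 131 of the 148 genes, which restates the lower old layer ratios given above. Whether the age difference differed between the layers was not tested, since that is the change of the ratio that chose the genes.

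**Figure D5:**
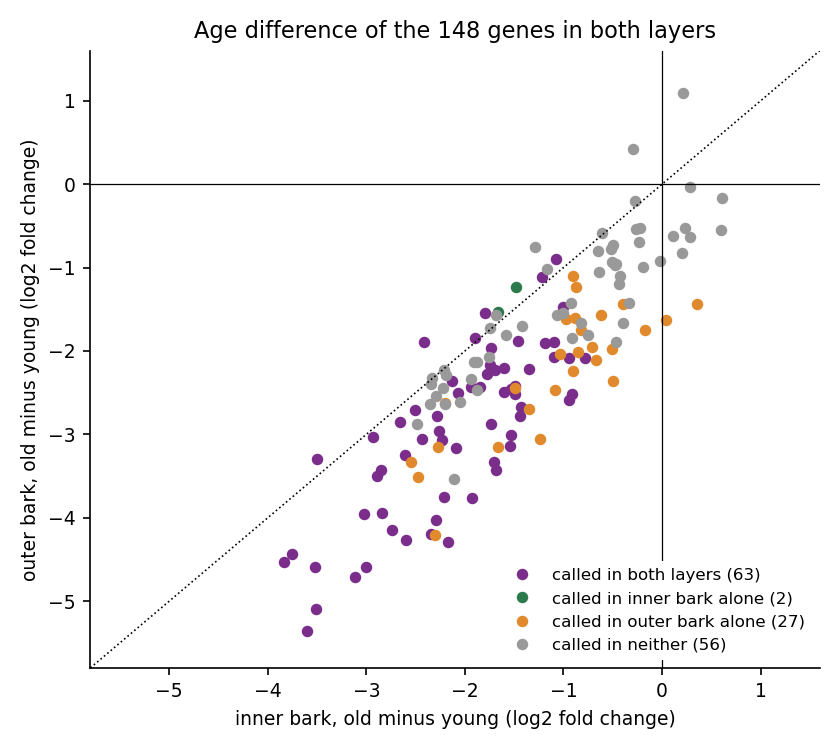
Old minus young log2 fold change of each of the 148 genes in inner bark (x axis) and outer bark (y axis), coloured by the layers in which it passed an adjusted p below 0.05; the dotted line marks equal change. Most points lie below the dotted line and left of 0, and 131 genes were more negative in outer bark.

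The set ran from genes that fell steeply with age to genes with little age difference. In inner bark 46 genes had a log2 fold change of -2 or below, and 30 of these passed the test. At any fold change, 11.7% of all genes tested were called lower there. That share is thus not one at -2 or below. In bins of 0.5 running from -4 up to -2, the shares of the set were 3.38%, 2.70%, 6.76% and 18.2%. Those of all genes at 10 CPM or more were 0.482%, 0.894%, 1.33% and 2.15%. The lowest value of the set was -3.84. The 30 include genes that met the inner floor through the young libraries, such as Potri.001G245400. Each of the 30 also passed in outer bark, from the same stems. Medians of their group means were 3.48 CPM (outer) and 13.8 CPM (inner) for old stems, against 43.7 CPM (outer) and 96.9 CPM (inner) for young stems. At the other end, 25 genes lay within 0.5 of no age difference in inner bark on the log2 scale. For them the medians were 4.74 CPM (outer) and 22.3 CPM (inner) in old stems, against 9.43 CPM (outer) and 30.2 CPM (inner) in young stems, and 5 of them fell in outer bark (8.88% of all genes tested did). The median layer ratio of the 25 genes was -2.04 in old stems, against -1.14 in young stems. That of the 30 genes was -1.61 in old stems, against -1.08 in young stems. Among the 18 genes with a mean ratio of -2 or below, 4 fell in inner and 9 in outer bark. Among the other 130 genes, 61 fell in inner and 81 in outer bark, beside 11.7% (inner) and 8.88% (outer) of all genes tested. These subsets were formed from the values themselves and their differences were not tested.

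Genes that passed the age test occurred at high and at low levels. Of the 32 genes at 100 CPM or more, 14 fell in inner and 18 in outer bark, with a median inner log2 fold change of -1.99. Of the 36 genes under 20 CPM, 14 fell in inner and 20 in outer bark, with a median of -0.94. The median old inner mean of these 36 genes was 9.76 CPM, against 21.7 CPM in young stems. Genes that met the inner floor through the young libraries are thus among them, so their age counts are not free of the selection. The level that formed both subsets is a mean over both ages. Of all genes tested, 11.7% fell in inner and 8.88% in outer bark.

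The genes also differed strongly between old stems. The median SD of log2(CPM + 1) between the 4 old inner libraries was 0.78 for the set, against 0.33 for all genes at 10 CPM or more, and 128 of the 148 genes lay above 0.33. In old outer bark the medians were 0.65 for the set and 0.34 for all such genes. Between the 3 young libraries the set's median was 0.29 in outer and 0.36 in inner bark, against 0.23 and 0.24. The SDs include stem 1, which stood apart at both ages, and values without it are not given here. The genes compared were not matched by level. Old stem 1 held the lowest inner value of 100 genes and the lowest outer value of 100 genes, against 47.1% and 52.0% of all genes at 10 CPM or more. Old stem 3 held the highest old inner value of 85 genes and the highest old outer value of 104, against 21.1% and 27.9% of all such genes. The share of inner counts given above was accordingly highest in old stem 3, at 0.784%, and lowest in old stem 1, at 0.292%. The labels give 1 diameter range for all old stems, so whether stems 1 and 3 differed in thickness is not known from them.

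Of the 148 identifiers, 146 carry a 3-digit number before the letter G and 2 begin with T. The 146 were spread over 19 such numbers, with at most 16 genes sharing one. In the order of the table, 2 pairs of the set stood on adjacent rows and 10 genes had another gene of the set within 5 rows. A like count for other genes is not given here, so these counts cannot be read as a trait of the set. Where such genes are near-identical copies, their reads may have been divided between them by the authors' counting.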

How the data were processed

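RNA sequencing libraries of outer and inner bark (14 in all) were compared. The deposited table holds raw counts of reads by gene (per the file headers, and whole-numbered in every column). Among the tools in the submitters' processing notes are HTSeq, TopHat, Bowtie, Trimmomatic and CASAVA. What each did, its version and the genome build are not given in the sources used here. Libraries were unstranded (per the labels' protocols), so sense and antisense reads of overlapping genes cannot be separated. The tables in which the authors compared the layers were not used, since the layer contrast chose the genes. Columns matching no sample numbered 0.

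The set, the lists and the tests were chosen with earlier results of these data known. CPM values printed are scaled by the library total alone. The number after WT in a title was taken to mark a stem. Outer and inner libraries of one age sharing that number deviated from their group means together, with correlations across genes of 0.66 to 0.86. Genes passing edgeR's filterByExpr over the 4 groups (27673) were tested for old minus young within each layer alone, 4 against 3 libraries, so that no fit held both layers of a stem. The test was edgeR's robust quasi-likelihood F test (version 4.0.16, R 4.3.3) with TMM scaling, and p-values were adjusted over all genes tested (Benjamini-Hochberg, threshold 0.05). SEs were derived from the F statistic. The fit was run before use on simulated counts drawn independently for each library, and the outcome is not given here. No stem stood apart in the simulation, so it does not show how the fit handles libraries like those of stem 1. Alternatives were RLE and upper-quartile factors, DESeq2 1.42.0, limma 3.58.1 (voom), other filters, all 14 libraries, the stem as a random effect, the number as a block, and leaving out libraries.

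Gene lists by product name (phloem, cambium, wood, cork and others) could not be filled, since the files pair no identifier with a name, and are not reported. Named genes are therefore at most 2 identifiers for each of these: the most negative mean ratio, the highest mean inner CPM, and the largest fold change in each direction for each age test among genes past the threshold without overlap between the ages. No gene met the last condition in the upward direction.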

Additional observations from a re-analysis of the deposited data

Results flagged for a closer look

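Of 21 sets of 4 old libraries examined (levels of the named genes, shares, totals and the layer ratio), 2 held a value far from the other 3, where chance gives about 1 in 20. Potri.016G104300 was at 4.25 CPM in the outer bark of old stem 4, while the other old outer libraries lay between 0.501 and 0.783 CPM. Old inner replicate 4 had the lowest total, 11944485 counts, against 13035943 to 13209115 in the other old inner libraries.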

How the results depend on the processing

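The set held between 112 and 221 genes under TMM or RLE scaling, an added value of 0.5 and inner minima of 5 and 20 CPM. It held 59 genes with 5 added to both levels, 394 at a ratio limit of -0.5 (of which the rule would keep 300), 38 at a limit of -1, and 153 to 248 when 1 stem was left out, the most without old stem 1 (248) and young stem 1 (247). The median layer ratio in young stems was -1.22 with TMM and -1.24 with RLE. Without the 10 most abundant genes the mean share of young stems was 0.490% (outer) and 1.14% (inner).

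The number of genes lower in old bark was 15 to 92 (inner) and 14 to 115 (outer) when 1 library was left out. The fits that gave these counts called 1.94% and 15.7% (inner) and 0.383% and 15.2% (outer) of all genes lower. DESeq2 gave 101 in inner bark, where it called 18.1% of all genes lower, and 97 in both layers. Genes higher in old inner bark numbered 0 or 1 when 1 library was left out and 3 without stem 1 of both ages. In outer bark none was higher under any alternative run (0 genes). The set's median fold change stayed negative in all of them, at -1.71 to -1.37 in inner and -2.65 to -2.07 in outer bark, while the median of all genes lay between -0.04 and 0.07.

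Stems of the same number were not paired across ages: their deviations correlated at -0.13, 0.05 and -0.02 in inner and -0.08, 0.18 and -0.13 in outer bark for numbers 1, 2 and 4. With the number as a block the counts were 32 (inner, where 3.46% of all genes were called lower), 20 (outer, 0.715%) and 15 (both), and some libraries correlated better with another number than with their own.

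Potri.010G196300 had no steady age difference: in inner bark its log2 fold change was 0.23 with limma, 0.62 with the block, 0.18 with the stem as a random effect, 1.09 without stem 1 of both ages and -0.83 to 0.83 when 1 library was left out, and in outer bark 0.16 without stem 1 of both ages. The cause was not tested.

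Outer levels of 36 genes rest on fewer than 10 counts in at least 1 library, which limits the precision of their fold changes.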

Other observations

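A further 289 genes with at least 10 CPM in inner bark met the ratio limit in 6 of the 7 stems. The stem that kept them out was young stem 1 for 104 genes and old stem 1 for 95, against 5 to 32 for each of the other stems. The ratio limit was met by 1654, 1613, 1582 and 2075 genes at that level in old stems 1 to 4, and by 835, 1110 and 1036 genes in young stems 1, 2 and 4.

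The same limits turned round, with the floor set on the mean outer level, gave 603 genes higher in outer bark in every stem. All 603 were used, although the rule would keep 300. Of these, 38 fell (6.3%) and 62 rose (10.3%) in old inner bark, beside 11.7% and 8.43% of all genes tested (edgeR, adjusted p below 0.05 over all genes tested). In old outer bark 3 fell (0.498%) and 97 rose (16.1%), beside 8.88% and 5.64%. Their median old minus young log2 fold change was 0.24 in inner and 0.43 in outer bark, beside -1.49 and -2.19 for the 148 inner bark genes. The difference between the sets was not tested.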
